A study of Mus musculus with 30 samples.

Results

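Rpl29, a component of the large ribosomal subunit encoded on chromosome 9, was expressed at a low level in 11 of 30 mouse mammary tumours and at a high level in the other 19. The tumours were selected on the Rpl29 value itself: those below 150 RPKM (read numbers divided by transcript length and by library size) formed the Rpl29-low group and those at or above it the Rpl29-high group. All 30 came from 1 labelled group, the ((MOLF x PyMT) x FVB) backcross. PyMT is the polyoma middle T antigen, a viral oncogene that drives mammary tumours, MOLF is an inbred strain derived from wild mice, and FVB is a laboratory strain. Each tumour is from a separately numbered animal, and animals are named here by that number. No genotype, treatment, age or stage is given for single animals, the promoter of the transgene is not named, and how much of each piece was tumour is not stated. The epithelial markers of a mammary tumour were present in both groups: the keratin gene Krt8 ranged from 284 to 586 RPKM in the low group and from 327 to 794 in the high group, and the adhesion gene Epcam from 313 to 487 and from 352 to 711.

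A ribosome contains 1 copy of nearly every ribosomal protein, and the genes for these proteins are usually expressed in concert. Rpl29 also has many processed copies in the mouse genome. In a backcross, a chromosome inherited from the hybrid parent can be of 1 strain throughout or a mosaic of segments of both strains. Genes that lie near each other therefore tend to be inherited together. Their order along the chromosome is the natural frame for reading a split in 1 gene. For that reason the genes of chromosome 9 (in cis with Rpl29) and those of all other chromosomes (in trans) were compared apart.

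Much of the Rpl29 transcript is shared with other gene models, and its copies matter for how its reads are counted. Of the 684 stretches of 50 bases in its annotated transcript, 453 (66.2%) also occurred in transcripts of other gene models, 82 models in all. The 60 coding bases from 134 to 193 of the 480-base coding sequence are shown because they were the coding stretch found unchanged in the most other models, 23 of them (GENCODE transcripts of GRCm38, sense strand).

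Rpl29: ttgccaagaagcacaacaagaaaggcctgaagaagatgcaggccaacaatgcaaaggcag

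A read that lies wholly within such a stretch matches more than 1 gene model. The rule by which such reads were assigned is not given in the sources used here. From such reads alone, Rpl29 and its copies therefore cannot be told apart.

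Rpl29 ranged from 48.5 to 87.6 RPKM in the low group, with a median of 68.8, and from 187 to 514 RPKM in the high group, with a median of 336. The means were 69.2 ± 14.1 (SD, n = 11) and 340 ± 86.1 RPKM (SD, n = 19), a ratio of 4.91. These values chose the groups and are given with no test. The tumour nearest to the threshold was that of animal 4315 at 87.6 RPKM on the low side and that of animal 4150 at 187 RPKM on the high side. No tumour lay between them.

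Relative to the other ribosomal protein genes, the tumours also fell into separate ranges, but the tumour of animal 4150 changed sides. Rpl29 amounted to 7.8 to 14.1% of the median of the 82 other cytosolic ribosomal protein genes in the 11 low tumours, with a median of 9.8%. In the high group the median was 44.3%, and 18 of the 19 tumours lay between 38.7 and 53.4%. The remaining one, animal 4150, was at 13.6%, inside the range of the low group. That library had the highest median of the other ribosomal protein genes, 1370 RPKM against 539 to 1080 in the other 29, and the smallest depth, 42.5 M reads. Among the 83 ribosomal protein genes Rpl29 ranked 82nd or 83rd by level in each low tumour, and also 83rd in that of animal 4150, against 64th to 72nd in the other 18 high tumours. The results below are therefore given with this tumour in the high group, as the threshold puts it, and also without it where it makes a difference.

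**Figure D1:**
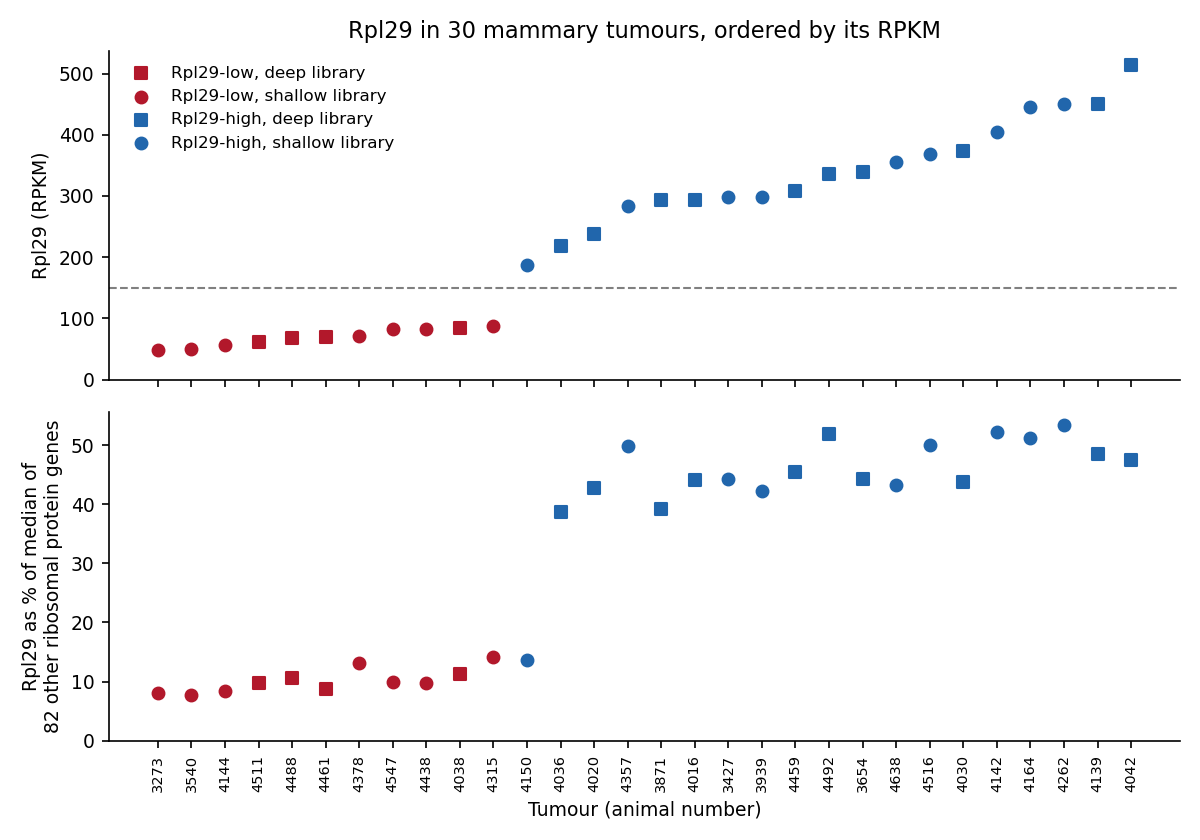
Rpl29 in each of the 30 tumours, ordered by RPKM along the horizontal axis. The upper panel shows RPKM, with the dashed line at the threshold of 150, and the lower panel Rpl29 as a percentage of the median of the 82 other ribosomal protein genes. Red points are the 11 low and blue points the 19 high tumours, with squares for deep and circles for shallow libraries; the tumour of animal 4150 lies at 187 RPKM above but at 13.6% below.

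The 2 groups were spread over both ranges of sequencing depth. Depth was recovered from the steps between low values: 16 libraries were shallow (42.5 to 61.8 M reads) and 14 deep (116.5 to 196.3 M reads), and the labels do not name this split. The low group held 4 deep and 7 shallow libraries and the high group 10 deep and 9 shallow ones. Rpl29 ran from 61.2 to 84.8 RPKM in deep and from 48.5 to 87.6 in shallow low libraries, and from 218 to 514 and from 187 to 451 in the high ones. The mean insert size of the library, as labelled with no unit, was 257 ± 13.7 (SD, n = 11) in the low and 243 ± 20.7 (SD, n = 19) in the high group. With insert size as a covariate, 6 genes of chromosome 9 passed the test described next, 5 of them among the 8 that passed without it.

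Between the groups, 13610 genes other than Rpl29 were compared on log2(RPKM + 1) with limma, and 9 passed an adjusted p of 0.05 (0.0661%). Of these, 8 lay among the 762 tested genes of chromosome 9 (1.05%) and 1 among the 12848 on other chromosomes (0.00778%). Of the 8, 7 were lower in the Rpl29-low tumours and Pccb was higher. At an unadjusted p below 0.05 the shares were 14.4% on chromosome 9 (110 genes) and 5.34% elsewhere (686 genes), against 5.85% over all genes. Of these, 60 on chromosome 9 (7.87% of its tested genes) and 387 elsewhere (3.01%) were lower in the Rpl29-low tumours. The rest of the genes at that level were higher, and their share too was larger on chromosome 9. Each of the 19 other chromosomes taken alone had between 3.02 and 8.56% of its tested genes below that level. The highest of these shares was on chromosome 17 (63 of 736), which also holds the 1 gene past the adjusted threshold outside chromosome 9. The median difference was close to 0 both on chromosome 9 (-0.008) and over all genes (-0.009).

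The genes of chromosome 9 that differed were unevenly placed. Places are counted here among the tested genes in the order of the RefSeq annotation of GRCm38.p6, since the build of the deposited table is not named; 562 tested genes preceded Rpl29 and 200 followed it. Within 10 places on either side, 10 of 20 genes had an unadjusted p below 0.05 (50%), 8 of them lower and 2 higher, and 2 passed the adjusted threshold. From 11 to 50 places away the count was 18 of 80 (22.5%), 10 lower and 8 higher, with 2 past the adjusted threshold. Farther after Rpl29, to the last tested gene, it was 37 of 150 (24.7%), 25 lower and 12 higher, with 4 past the adjusted threshold. More than 50 places before Rpl29 it was 45 of 512 (8.79%), 17 lower and 28 higher, with none past the adjusted threshold in limma. The differences between these stretches were not tested.

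**Figure D2:**
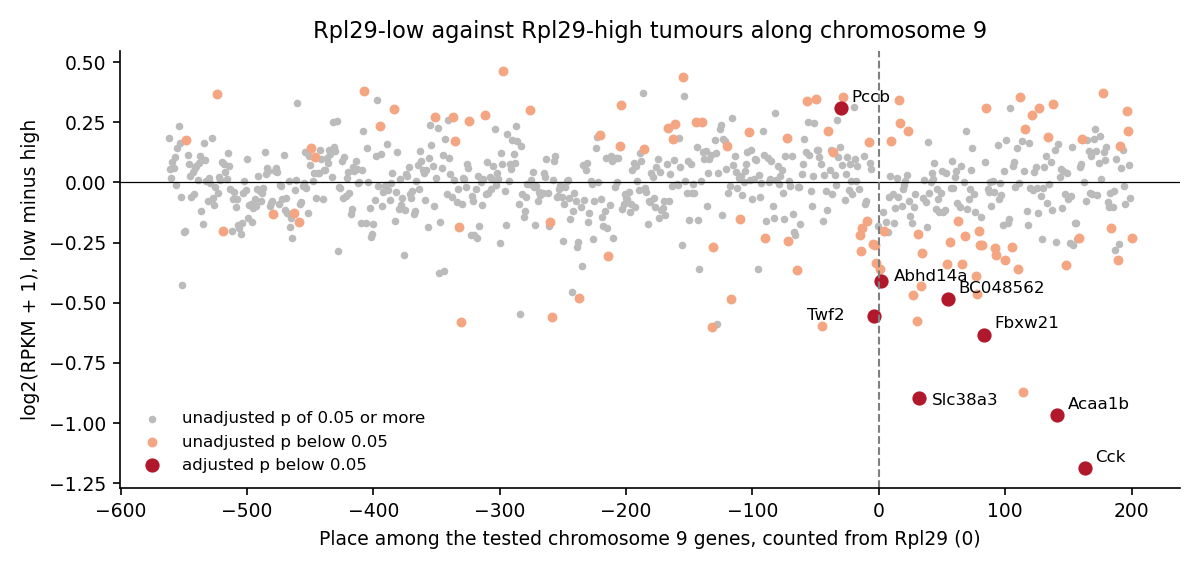
Difference in log2(RPKM + 1) between the Rpl29-low and Rpl29-high tumours (low minus high) for the 762 tested genes of chromosome 9, by place from Rpl29 at 0. Grey points have an unadjusted p of 0.05 or more, orange points one below 0.05, and red points an adjusted p below 0.05 (limma); the 8 red points lie between 30 places before and 163 places after Rpl29, and 7 of them are below 0.

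Twf2, which encodes twinfilin-2, a protein that binds actin monomers, is 4 places before Rpl29. Its level ran from 17.3 to 33.1 RPKM in the low tumours, with a median of 20.8, and from 20.7 to 41.8 in the high tumours, with a median of 33.6. The lowest of the high tumours was that of animal 4150, and the highest of the low tumours was that of animal 3273. Without animal 4150 the high group began at 25.5 RPKM, and 10 of the 11 low tumours lay below that. The difference on the log2 scale was -0.56 ± 0.09 (SE; adjusted p = 0.00796, limma), and -0.59 without animal 4150 (adjusted p = 0.000445, limma).

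Abhd14a, an alpha/beta hydrolase gene, is 2 places after Rpl29. It ran from 14 to 20.7 RPKM, median 15.8, in the low tumours and from 15.4 to 28.3 RPKM, median 22.8, in the high ones. The groups overlapped: 6 high tumours, of animals 4020, 4036, 4357, 3654, 4016 and 3871, lay below the highest low tumour, that of animal 4438. The difference was -0.41 ± 0.08 (SE; adjusted p = 0.0223, limma). Abhd14b, which overlaps Abhd14a in the annotation and also encodes a hydrolase, differed by -0.12 ± 0.10 (SE; adjusted p = 0.809, limma).

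The other genes within 10 places did not pass the adjusted threshold. On the near side of Twf2 lie Alas1, which encodes the first enzyme of haem synthesis, and Poc1a, which encodes a centriole protein. Alas1 had medians of 18.3 RPKM in the low and 23.3 RPKM in the high tumours (difference -0.26 ± 0.07, SE; adjusted p = 0.572, limma). Leaving out animal 4150 gave an adjusted p of 0.0376 (limma). Poc1a had medians of 8.88 and 11.4 RPKM (-0.33 ± 0.09, SE; adjusted p = 0.492, limma). Acy1, the aminoacylase gene that follows Rpl29 directly among the tested genes, had medians of 31.2 and 39.1 RPKM (-0.36 ± 0.11, SE; adjusted p = 0.801, limma).

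Smaller differences were measured in the rest of this neighbourhood. The phosphatase gene Ppm1m (-0.25), the poly(C)-binding protein gene Pcbp4 (-0.20) and Aste1 (-0.16) had an unadjusted p below 0.05, as did the Golgi calcium pump gene Atp2c1 and the ubiquitin ligase adaptor gene Dcaf1, which were both 0.17 higher in the low group. None of these 5 passed the adjusted threshold (0.801 each, limma). The 8 genes Nudt16, Pik3r4, Wdr82, Dusp7, Parp3, Rrp9, Iqcf1 and Tex264 differed by between -0.21 and 0.08, and Rad54l2 by 0.03, each with an unadjusted p above 0.05. Over the 20 neighbours 15 were lower and 5 higher, with a median difference of -0.17.

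Slc38a3, a glutamine transporter gene 32 places after Rpl29, ran from 25.1 to 88.3 RPKM in the low tumours, with a median of 53.6. In the high tumours it ran from 50.6 to 142 RPKM, with a median of 105. Both groups were wide, and the lowest high tumours, of animals 3654 and 4030, lay near the low group's median. The difference was -0.90 ± 0.17 (SE; adjusted p = 0.0187, limma).

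Acaa1b, a peroxisomal thiolase gene that acts in fatty acid beta-oxidation, is 141 places after Rpl29. In 10 of the 11 low tumours it lay between 6.56 and 11.8 RPKM, and in the tumour of animal 4144 it was at 34.6 RPKM, above every high tumour. The high tumours ran from 11.2 to 28 RPKM with a median of 21.6, against 9.65 in the low group. The difference was -0.97 ± 0.16 (SE; adjusted p = 0.00796, limma) and, without animal 4144, -1.13 (adjusted p = 9.68e-07, limma). Its paralogue Acaa1a, which contains 583 of the 1640 stretches of 50 bases in the Acaa1b transcript (35.5%), differed by 0.05 (adjusted p = 0.869, limma). Reads from those stretches cannot be assigned to 1 of the paralogues with certainty.

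Cck, the gene of the peptide hormone cholecystokinin, is 163 places after Rpl29 and had the largest difference of the 8 genes. It ran from 2.40 to 8.03 RPKM in the low tumours, median 3.13, and from 3.56 to 20.9 RPKM in the high ones, median 9.75. The low tumour with the most Cck was again that of animal 4144, and the high tumour with the least was that of animal 4459. The difference was -1.19 ± 0.21 (SE; adjusted p = 0.0115, limma).

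The 2 genes with the lowest levels are Fbxw21, an F-box gene 83 places after Rpl29, and BC048562, a transcript known by its clone name, 55 places after it. Fbxw21 ran from 0.345 to 2.03 RPKM, median 0.875, in the low tumours and from 0.884 to 4.50 RPKM, median 1.99, in the high tumours (-0.63 ± 0.12, SE; adjusted p = 0.0223, limma). It shares 189 of its 1463 stretches of 50 bases (12.9%) with 8 other gene models, the largest number (76) with Fbxw19, and reads from those stretches cannot be assigned with certainty. BC048562 ran from 0.670 to 1.72 RPKM, median 0.914, and from 0.917 to 2.65 RPKM, median 1.79 (-0.49 ± 0.10, SE; adjusted p = 0.0296, limma). At these levels the pseudocount matters: with 0.1 in place of 1 the difference was -1.05 for Fbxw21 (adjusted p = 0.0187, limma) and -0.79 for BC048562 (adjusted p = 0.0213, limma).

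Pccb, which encodes the beta subunit of propionyl-CoA carboxylase, a mitochondrial enzyme, is 30 places before Rpl29 and was the only one of the 8 that was higher in the low group. It ran from 44.1 to 60.6 RPKM in the low tumours, median 53.4, and from 30.0 to 50.2 RPKM in the high ones, median 42.8. The lowest value was that of animal 4150. The difference was 0.31 ± 0.06 (SE; adjusted p = 0.0429, limma), the smallest of the 8, and it passed the threshold in 9 of the 30 fits that each left out 1 tumour.

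The other 7 genes were tried in the same way. Twf2, Slc38a3, Acaa1b and Cck passed in all 30 fits, Abhd14a in 25, Fbxw21 in 24 and BC048562 in 16. With insert size as a covariate the adjusted p rose to 0.116 for Fbxw21, 0.0717 for BC048562 and 0.163 for Pccb (limma). Without both tumours nearest to the threshold it was 0.0619 for Abhd14a, Fbxw21 and BC048562 (limma). With Rpl29 as a continuous variable it was 0.101 for Slc38a3, 0.243 for BC048562 and 0.402 for Pccb (limma). With animal 4150 counted as low it was 0.285 for Abhd14a, 0.16 for Fbxw21, 0.0669 for BC048562 and 1.0 for Pccb (limma). The count of chromosome 9 genes past the threshold was 10 without animal 4150, where Alas1 and the methyltransferase gene Hemk1 joined the 8, and 4 without animal 4315, 4488 or 4511, each of the low group, and 5 without animal 4378, also of the low group.

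**Figure D3:**
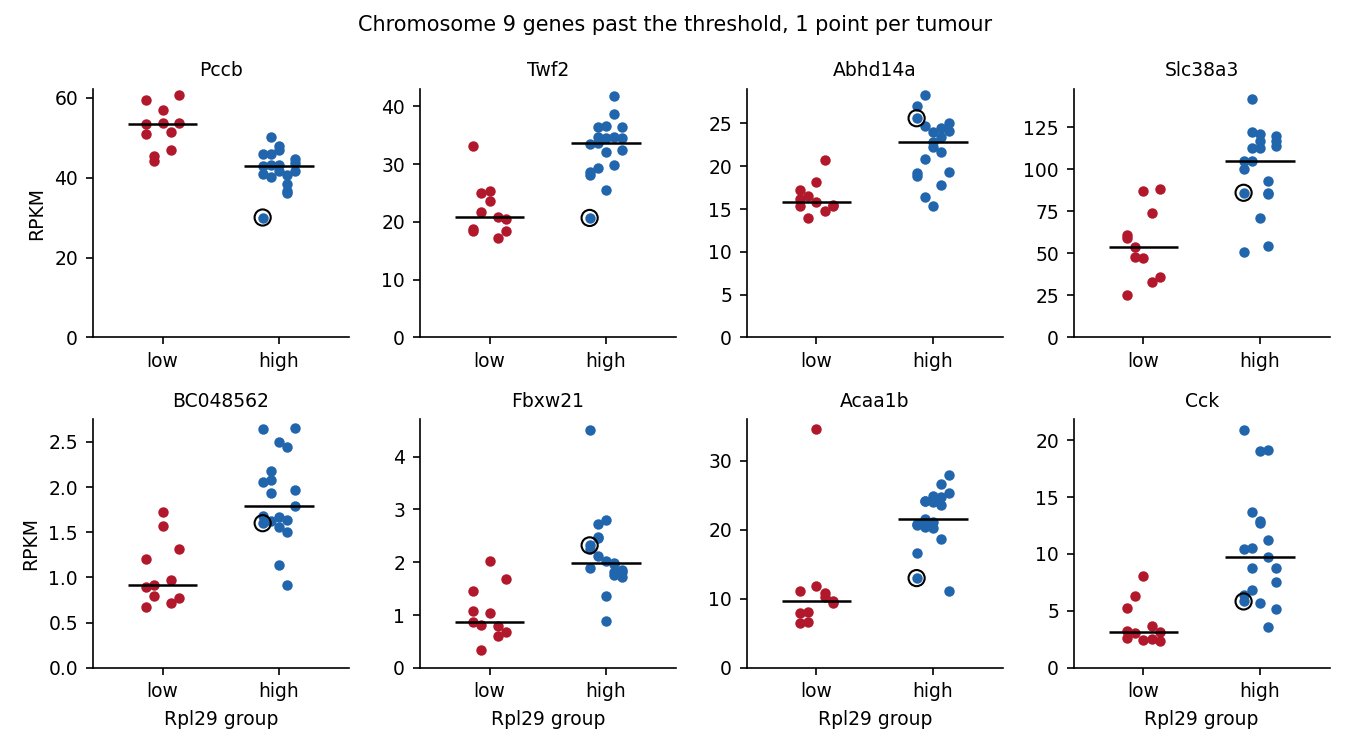
RPKM of the 8 chromosome 9 genes with an adjusted p below 0.05 in each tumour of the Rpl29-low (red, 11 tumours) and Rpl29-high group (blue, 19 tumours), in gene order, with the group median as a bar and the tumour of animal 4150 circled. The groups overlap in every panel; Acaa1b shows 1 low tumour, animal 4144, at 34.6 RPKM.

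Single tumours did not follow the 8 genes as a block. With the midpoint between the group medians of each gene as the divide, between 23 and 27 of the 30 tumours lay on their own group's side for a given gene. In the low group 2 tumours were on their own side for all 8 genes, 6 for 7, 2 for 6 and 1, animal 4144, for 4. Animal 4144 was on the far side for Slc38a3, BC048562, Acaa1b and Cck and on the side of the low group for Twf2 (23.6 RPKM), Abhd14a (18.1 RPKM), Pccb (53.7 RPKM) and Fbxw21 (1.03 RPKM), which lies between BC048562 and Acaa1b. In the high group 4 tumours were on their own side for all 8 genes, 9 for 7, 5 for 6 and 1, animal 4150, for 5. The counts by tumour used rounded medians and the counts by gene unrounded ones. Animal 3871, at 19.3 RPKM of Abhd14a, lay at the midpoint and was on its own side only in the count by tumour. With unrounded medians it would be on its own side for as many genes as animal 4150. Since the midpoints were taken from the same tumours, these counts are a description.

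The genes whose level was most like that of Rpl29 were ranked by Pearson's r over the 30 tumours on log2(RPKM + 1), as a description of values that share libraries and depth. The 5 highest were Twf2 (r = 0.772), Abhd14a (0.766), Acaa1b (0.726), Gm6548 (0.698) and Cck (0.693). Because the tumours form separate clusters, r within each group was also computed. For Twf2 it was -0.726 among the 11 low and 0.771 among the 19 high tumours, so the relation ran in opposite directions inside the groups. For Cck it was -0.038 and 0.059, for Acaa1b -0.292 and 0.486, and for Abhd14a -0.098 and 0.590. The 5 most opposite genes were Exph5 (-0.639), Hemk1 (-0.617), Pccb (-0.591), Cpeb2 (-0.581) and Nr1d2 (-0.556), of which the first 3 are on chromosome 9.

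Other genes of chromosome 9 had small p-values without passing the adjusted threshold, of which Naa80 and Trex1 were singled out after their values were seen. Naa80, which encodes an actin acetyltransferase, had medians of 10.8 and 14.3 RPKM in the low and high tumours, and the exonuclease gene Trex1 5.86 and 8.24 RPKM. Both had an adjusted p of 0.185 (limma). Exph5, 297 places before Rpl29, had medians of 1.97 and 1.25 RPKM with the same adjusted p (limma), and Hemk1, 16 places after it, 11.4 and 8.68 RPKM (adjusted p = 0.339, limma). Cadm1, an adhesion molecule gene on the same chromosome 331 places before Rpl29, had medians of 7.09 and 11.8 RPKM (-0.58 ± 0.18, SE; adjusted p = 0.801, limma).

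Promoter sequences were available for 6 of the 9 genes past the threshold. Those of Abhd14a, Acaa1b and Cck are shown because Abhd14a, 2 places from Rpl29, is the nearest gene past the threshold, and Acaa1b and Cck had the largest differences on chromosome 9. Each runs from 250 bases before the annotated start to 30 after it (RefSeq, GRCm38.p6, minus strand), and capitals mark the GC box GGGCGG, the CCAAT box CCAAT and the TATA box TATAAA on either strand. The positions are chr9:106447649-106447928 for Abhd14a, chr9:119157064-119157343 for Acaa1b and chr9:121495665-121495944 for Cck.
Abhd14a: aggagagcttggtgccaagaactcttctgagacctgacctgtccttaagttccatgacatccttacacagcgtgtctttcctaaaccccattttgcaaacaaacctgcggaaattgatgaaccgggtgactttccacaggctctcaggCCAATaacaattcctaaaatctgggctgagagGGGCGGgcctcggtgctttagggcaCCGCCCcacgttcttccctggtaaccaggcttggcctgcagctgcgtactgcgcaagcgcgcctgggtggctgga
Acaa1b: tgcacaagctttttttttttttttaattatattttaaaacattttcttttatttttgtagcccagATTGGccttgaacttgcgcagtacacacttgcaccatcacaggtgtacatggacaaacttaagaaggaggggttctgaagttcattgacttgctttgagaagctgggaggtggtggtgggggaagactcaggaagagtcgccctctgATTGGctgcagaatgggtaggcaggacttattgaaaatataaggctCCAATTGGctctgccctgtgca
Cck: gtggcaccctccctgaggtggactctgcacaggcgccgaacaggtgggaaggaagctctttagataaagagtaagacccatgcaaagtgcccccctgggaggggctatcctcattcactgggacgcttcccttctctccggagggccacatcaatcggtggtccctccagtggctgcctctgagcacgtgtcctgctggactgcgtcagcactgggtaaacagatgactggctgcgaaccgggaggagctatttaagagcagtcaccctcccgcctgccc

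The Abhd14a window held 2 GC boxes and 1 CCAAT box, the Acaa1b window 4 matches to the CCAAT box on both strands, of which 2 overlap, and the Cck window none of the 3 motifs. Over 32544 promoters of the same length, 34.9% held a GC box, 36% a CCAAT box and 13.1% a TATA box. No motif was common to the 3 windows. A match is a description of the letters only.

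On the other chromosomes, Gm6548 was the only gene past the threshold. It is a transcribed pseudogene on chromosome 17. In the low group all 11 tumours lay between 3.86 and 13.1 RPKM. In the high group 14 tumours lay between 32.1 and 47.1 RPKM, and the 5 others, of animals 3939, 4262, 4150, 3654 and 4030, between 3.84 and 12.1 RPKM, in the range of the low group. The difference was -1.73 ± 0.31 (SE; adjusted p = 0.0125, limma), and -1.80 without animal 4150 (adjusted p = 0.00667, limma). No tumour lay between 13.1 and 32.1 RPKM, so Gm6548 was itself split, in 16 tumours at the lower and 14 at the higher level, and the 14 were all in the Rpl29-high group.

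**Figure D4:**
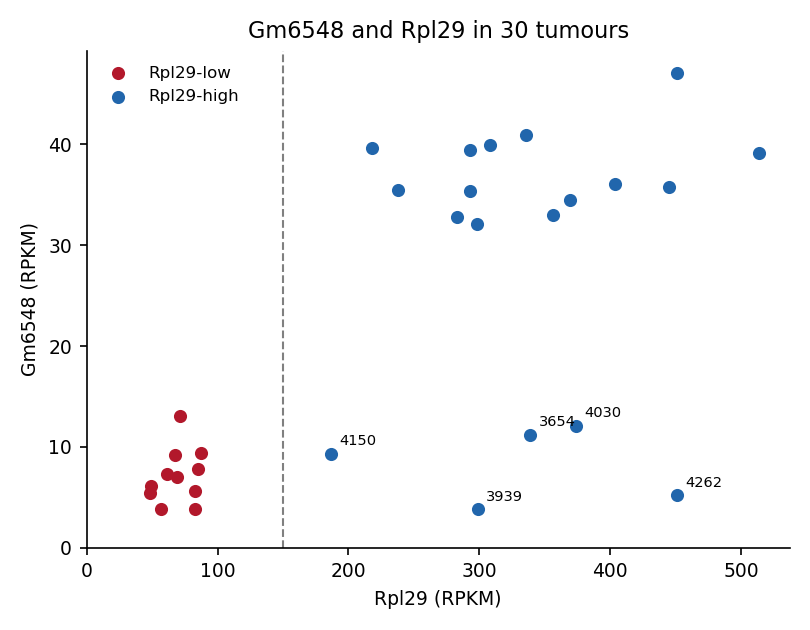
Gm6548 against Rpl29, both in RPKM, in the 30 tumours, with the Rpl29 threshold of 150 as a dashed line. The 11 Rpl29-low tumours (red) are all at or below 13.1 RPKM of Gm6548, and the Rpl29-high tumours (blue) separate into 14 at 32.1 or more and 5, labelled by animal, at 12.1 or less.

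The genes around Gm6548 were compared between the Rpl29 groups only. Of its 20 nearest tested neighbours on chromosome 17, 0 had an unadjusted p below 0.05 in that comparison (limma), and 10 were lower. Because 5 Rpl29-high tumours were at the lower Gm6548 level, that comparison does not follow the split of Gm6548. Whether the neighbours follow that split was not tested. Gm6548 is a copy of Eef1a1, which encodes the translation elongation factor that brings aminoacyl-tRNA to the ribosome and which lies on chromosome 9, 105 places before Rpl29. Over 1163 aligned bases the transcripts were 96.9% identical, and 143 of the 1116 stretches of 50 bases in Gm6548 (12.8%) occurred in Eef1a1. Over all other gene models, 269 of the 1116 stretches (24.1%) occurred elsewhere, in 16 models that include Eef1a1. A 60-base part of the alignment is shown to make that closeness visible: bases 448 to 507 of the Eef1a1 coding sequence and bases 226 to 285 of Gm6548, with the 4 differing bases in capitals.
Eef1a1: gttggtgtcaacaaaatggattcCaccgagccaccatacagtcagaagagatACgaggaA
Gm6548: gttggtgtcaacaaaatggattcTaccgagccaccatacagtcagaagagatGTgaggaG

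Eef1a1 itself was measured at 4000 to 5780 RPKM in the low and 3990 to 5750 RPKM in the high tumours (difference 0.08 ± 0.08, SE; adjusted p = 0.84, limma). Gm6548 amounted to 0.0668 to 0.94% of Eef1a1 in single tumours. Reads of the gene and of its copy cannot be told apart in the stretches they share.

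The other cytosolic ribosomal protein genes were tested beside Rpl29. Of these 82, 0 passed the adjusted threshold (0.0661% over all genes) and 5 had an unadjusted p below 0.05 (6.1%, against 5.85% over all genes, limma), Rpl11, Rpl22, Rpl24, Rpl27 and Rplp2, at -0.28 to -0.31. Differences ranged from -0.34 for Rpl36 to 0.13 for Rps3a1, with a median of -0.14. The 95% intervals together spanned -0.71 to 0.50. The difference of Rpl29 itself, -2.26, follows from the choice of the groups and is given as a description. The number of members below 0 varied with the setting: 79 of 82 were lower in the low group, against 53.1% of all genes tested, 74 without animal 4150 (median -0.10), 50 after quantile normalization (median -0.04) and 42 in the deep libraries alone (median -0.01). In the shallow libraries alone 79 were lower, with a median of -0.26.

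**Figure D5:**
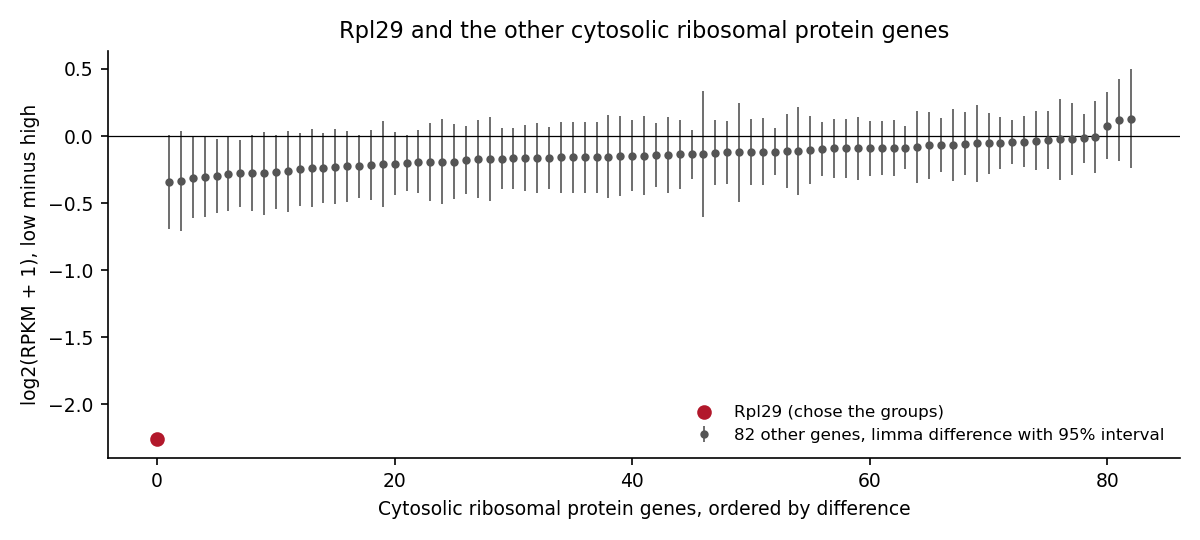
Difference in log2(RPKM + 1), low minus high, for Rpl29 (red, the gene that chose the groups) and the 82 other cytosolic ribosomal protein genes (grey, with 95% intervals from limma), in order of difference. The grey points lie between -0.34 and 0.13, and Rpl29 at -2.26; after quantile normalization 50 rather than 79 of the 82 are below 0.

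The ribosomal protein lists used here hold 6 other genes on chromosome 9. Of these, Rpl14 and Rpsa lie beyond Rpl29, at 160 and 156 places after it, near Cck. Rps27rt, 129 places after Rpl29, was not in the lists and differed by -0.24 (adjusted p = 0.801, limma). Rpl14 had medians of 552 RPKM in the low and 483 RPKM in the high tumours (0.08 ± 0.12, SE; adjusted p = 0.894, limma), and Rpsa 669 and 763 RPKM (-0.17 ± 0.11, SE; adjusted p = 0.801, limma). Rpl4, Rplp1, Rps25 and Rps27l, between 160 and 370 places before Rpl29, differed by -0.15 to -0.01. Among the most abundant members, Rpl13a, Rpl41 and Rps14 differed by -0.17 to -0.02.

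Across 19 lists of genes for translation, stress responses, proliferation, metastasis and the cell types of a tumour, 264 genes were tested, of which 0 passed (0.0661% over all genes) and 9 (3.41%, against 5.85% over all genes) had an unadjusted p below 0.05 (limma). Beside the 5 ribosomal protein genes these were the ribosome biogenesis gene Bysl (-0.16), the p53 target Ccng1 (0.29), Cadm1 (-0.58) and the mitotic gene Ube2c (-0.35), with an adjusted p of 0.801 each (limma). Of 17 translation factors whose mRNAs are regulated like those of ribosomal proteins, 0 had an unadjusted p below 0.05, with a median of -0.08. Of 27 ribosome biogenesis genes 1 did, with a median of -0.05, of 17 p53 targets 1, with a median of 0.03, and of 13 genes of the integrated stress response 0, with a median of -0.02. Of 16 proliferation genes 1 did, with a median of -0.08. Lower in the low group were 15 of the 17 translation factors, 23 of the 27 biogenesis genes and 14 of the 16 proliferation genes. The same held for 4 of the 17 p53 targets and 8 of the 13 stress response genes, against 53.1% of all genes tested. These counts of direction were not tested.

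Markers of other cell types varied widely within both groups. The summed level of 12 stroma matrix genes ran from 373 to 2210 RPKM in the low and from 543 to 6730 in the high tumours, with 7 of the 12 lower. For 8 skeletal muscle genes the ranges were 18.7 to 13000 and 18.7 to 4890 RPKM, with all 8 higher in the low group and 0 past an unadjusted p of 0.05. For 8 milk genes they were 2320 to 53300 and 2360 to 27900 RPKM, with 6 of 8 lower. For 7 macrophage genes they were 320 to 756 and 249 to 815 RPKM. The smallest adjusted p in the basal, adipocyte, endothelial, T cell, B cell and interferon lists lay between 0.801 and 0.919 (limma). Higher in the low group were 5 of 7 basal, 7 of 7 adipocyte and 6 of 7 endothelial genes. So were 3 of 5 T cell, 4 of 4 B cell and 2 of 9 interferon genes. Of 10 luminal epithelial genes 8 were lower in the low group and 2 higher, with a median of -0.08. These directions were not tested. In whole tumour pieces, fewer cells of a type and less RNA per cell cannot be told apart. With proliferation, stroma, T cell and milk scores as covariates, 13 genes of chromosome 9 passed, including the 8.

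Within each depth class alone, 0 genes passed the adjusted threshold in limma. The values of the 9 genes in each class are a description, since the genes were picked on the same tumours. Among the deep libraries (4 low, 10 high) 46 of 762 chromosome 9 genes were below an unadjusted p of 0.05 (6.04%), against 298 of 12848 others (2.32%). Among the shallow ones (7 low, 9 high) it was 68 (8.92%) against 629 (4.9%). The differences of Twf2 were -0.69 in deep and -0.48 in shallow libraries, of Acaa1b -1.09 and -0.91, of Cck -1.40 and -1.04, of Slc38a3 -0.91 and -0.92, and of Gm6548 -1.86 and -1.48. Abhd14a differed by -0.37 and -0.48, Fbxw21 by -0.54 and -0.71, BC048562 by -0.57 and -0.46, and Pccb by 0.43 and 0.23. An interaction between Rpl29 group and depth class passed for 0 of 13610 genes, with 268 at an unadjusted p below 0.05 (limma).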

How the data were processed

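The 30 libraries were made from poly-A selected RNA, 1 per tumour. The authors deposited 1 table of RPKM values for 27902 RefSeq transcripts and did not name the unit, which was inferred from the values. The submitters' processing notes list CASAVA 1.7.0. The build, annotation and aligner settings were not given in the sources used here. Transcripts were named with a RefSeq table of GRCm38.p6 (26490) and GENCODE (154); 1258 unnamed ones (1.94% of summed RPKM) and 695 small RNA transcripts were left out. Of the transcripts of a gene the one with the highest mean was kept, giving 20846 genes, of which 13611 had a mean of at least 1 RPKM.

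Depth was recovered from the steps of low values; 62.4 to 72.8% of values lay within 0.12 of a whole read count, against 24% by chance, too few for a count test. Groups were compared with limma 3.58.1 (R 4.3.3, empirical Bayes with trend, two-sided) on log2(RPKM + 1) with Benjamini-Hochberg adjustment over all 13610 genes but Rpl29. Differences are low minus high on that scale, where the pseudocount makes changes of low genes look smaller; the code was tested on simulated data. Each animal gave 1 library, so p-values cover animal and technical spread together. Motifs and alignments used Python 3.11.15 and Biopython 1.88.

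The groups, gene lists and tests were chosen with earlier results of these data known. Named genes were Rpl29; those past the threshold; the 10 tested genes on each side of Rpl29; ribosomal protein genes on chromosome 9 and the 3 most abundant of each subunit; the 5 most and least correlated with Rpl29; and Cadm1. Some genes that this rule took are not reported here. Alternatives were another pseudocount, filter, normalization, covariates, single depth classes, other group definitions, summed transcripts and leaving out each tumour; putting animal 4150 with the low group was chosen after seeing the data.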

Additional observations from a re-analysis of the deposited data

How the results depend on the processing

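The count of chromosome 9 genes past the threshold (8) was 0 in deep libraries alone and 0 in shallow libraries alone, which have fewer tumours, 13 with the composition scores as covariates and 5 with Rpl29 as a continuous variable. Leaving out 1 tumour at a time gave 4 to 10. The count on other chromosomes (1, Gm6548) was 0 in deep and 0 in shallow libraries alone and 1 under every other alternative, including each left-out tumour. With animal 4150 put among the low tumours, 6 chromosome 9 genes passed: Twf2, Slc38a3, Acaa1b and Cck of the 8, with Alas1 and Hemk1. No paired analysis was possible because all tumours are single animals of 1 labelled group.

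The 9 genes past the threshold kept their sign under every alternative. They were picked for their difference in the same tumours, which the alternatives reuse in whole or in part, so this is a description. The sign turned in genes that did not pass. Quantile normalization gave 0.03 for Rpl4, 0.05 for Rps25 and Rpl41 and 0.12 for Rps27l and Rps14. Deep libraries alone gave 0.06 for Dusp7, 0.09 for Rpl4, 0.02 for Rplp1 and Rps25, 0.00 for Rpsa and 0.13 for Rps14. Shallow libraries alone gave -0.02 for Rad54l2, -0.03 for Rpl14 and Eef1a1, and 0.03 for Rps27l. Insert size as a covariate gave -0.02 for Wdr82, 0.00 for Rad54l2 (on the other side of 0) and 0.08 for Rps27l. Without the tumours nearest to the threshold Rps27l was 0.01 and Rps14 0.04. With animal 4150 in the low group the values were -0.03 for Pik3r4, -0.01 for Wdr82, -0.06 for Rad54l2, 0.02 for Rpl4, 0.11 for Rps25, 0.15 for Rps27l and 0.10 for Rps14. Leaving out 1 tumour at a time, Rad54l2 ranged from -0.01 to 0.05, Rps25 from -0.13 to 0.00, Rps27l from -0.06 to 0.05 and Rps14 from -0.08 to 0.02. The cause was not tested. With 11 against 19 tumours, a 95% interval of a gene as variable as Slc38a3 ran from -1.24 to -0.56, so differences well inside that width could not be shown for such genes.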
